A study of Mus with 14 samples.

Results

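The 10 genes described here act next to the tumour necrosis factor (TNF) receptors and were read in bone marrow progenitor libraries from 14 mice. They are the adaptors Traf1, Traf2 and Tradd, the kinases Ripk1 and Ripk3, the ubiquitin ligases Birc2 and Birc3, the caspase-8 regulator Cflar, the ubiquitin-editing enzyme Tnfaip3, and the protease Casp8. They were chosen by name from the 32285 genes in the deposited matrices, and all 10 had counts in every comparison over all cells. TNF binds 2 receptors, Tnfr1 (gene Tnfrsf1a) and Tnfr2 (gene Tnfrsf1b). At Tnfr1 the adaptor Tradd brings in Ripk1, Traf2 and the Birc2 and Birc3 ligases, and the complex built there turns on NF-kB. When that complex gives way, Casp8 with its partners can drive apoptosis under the restraint of Cflar, and Ripk3 can drive necroptosis. Tnfr2 has no death domain and recruits Traf2 directly, with Traf1 and the Birc ligases. Birc3, Tnfaip3, Traf1 and Cflar are themselves known NF-kB target genes, so part of the set both transmits and records the signal. In the mouse genome (build GRCm38, RefSeq annotation) the adaptors are Traf1 (chr2:34941750-34961812), Traf2 (chr2:25517982-25546940) and Tradd (chr8:105258575-105264594), and the kinases Ripk1 (chr13:34002225-34035170) and Ripk3 (chr14:55784995-55788857). The survival genes are Birc2 (chr9:7818226-7837131), Birc3 (chr9:7847468-7873205), Cflar (chr1:58711311-58758884) and Tnfaip3 (chr10:19000910-19015410), and the protease is Casp8 (chr1:58795233-58847503).

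Each library held Lin-Kit+CD45.2+ cells (donor-derived cells without mature lineage surface markers and with the stem cell factor receptor) sorted from 1 mouse 20 weeks after a secondary transplant. Hosts were aged, lethally irradiated CD45.1+ mice, and the primary recipients had been given CD45.2+ cells mixed with CD45.1+ competitor marrow and later a single poly(I:C) injection, which switches on the interferon-inducible Mx-Cre recombinase. By genotype label there were 3 MxCre mice, 4 Dnmt3a mice, 3 Dnmt3a;Tnfr1KO mice (written Tnfr1KO below) and 4 Dnmt3a;Tnfr2KO mice (written Tnfr2KO). No Dnmt3a allele is named in the labels. Nor is the primary recipient behind each mouse, and p-values therefore measure only the spread between these libraries, some of which may come from 1 donor. The sort left out host cells, which were not measured.

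The libraries held 3042 to 9724 cell barcodes and 62416022 to 162869740 unique molecular identifiers (UMIs, which count captured transcripts), and 66298 cells were kept. Dnmt3a replicate 1 stood apart with 25.4% of its barcodes kept against 61.5 to 91.5% in the other 13, and Dnmt3a replicate 4 with 2059 of the 3035 B-lymphoid-like cells. No pair of libraries shared more than 17 barcodes. Kit, the gene of the sorted surface marker, was read in all 14 libraries at 69.0 to 182 unscaled counts per 1000000 UMIs (unscaled CPM, without the library scaling factors used elsewhere), and Ptprc (CD45) at 70.2 to 156. Of the targeted genes, Tnfrsf1b was lower in Tnfr2KO than in Dnmt3a (log2 fold change -1.44, edgeR adjusted p = 6.06e-04). Tnfrsf1a was not called lower in the libraries labelled Tnfr1KO: it read 42.2, 33.8 and 38.3 scaled counts per 1000000 UMIs (CPM) there and 32.3, 39.8, 52.8 and 49.2 in Dnmt3a, and the groups overlapped (log2 fold change -0.19, edgeR adjusted p = 0.594). A 3' tag outside a deleted part would not show a deletion, so this checks nothing about the protein, and every direction below for Tnfr1KO is that of libraries labelled so. The Dnmt3a gene itself averaged 24.6 CPM in MxCre and 30.6 in Dnmt3a, a difference that was not called (log2 fold change 0.31, edgeR adjusted p = 0.0812). It averaged 22.0 CPM in Tnfr1KO (-0.48 against Dnmt3a, adjusted p = 0.0490) and 23.8 in Tnfr2KO (-0.36, adjusted p = 0.0627), and in all 7 of those libraries it lay below all 4 Dnmt3a libraries (groups did not overlap for 14.3% and 9.42% of all tested genes in these comparisons).

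The question asked first was where in the progenitor pool each of the genes is read. Cells were given a lineage by UMIs of marker genes outside the set. They were 16185 granulocyte-like, 7548 monocyte-like, 6150 erythroid-like, 5140 HSC/MPP-like (stem cell and multipotent progenitor), 3035 B-lymphoid-like, 2275 megakaryocyte-like and 1235 basophil/mast-like cells. No lineage was reached by 21066 cells (31.8%). Another 3434 cells (5.18%) passed for more than 1 lineage without a clear lead and entered no lineage. Levels by lineage are CPM scaled over all lineages together, as mean ± SD over the libraries with at least 20 such cells, and each lineage was tested against the mean of the other 6 with the library as a block. Of the 70 gene and lineage pairs, 50 passed (edgeR, adjusted p below 0.05), 28 higher and 22 lower. That share is close to the background, since between 51.4% (basophil/mast-like) and 78.1% (granulocyte-like) of the 12435 tested genes passed in the same contrasts, with 67.2% in HSC/MPP-like, 57.4% in megakaryocyte-like, 75.9% in erythroid-like, 73.3% in monocyte-like and 63.8% in B-lymphoid-like cells. B-lymphoid-like cells had 7 of the 10 genes higher and 1 lower, where 29.1% of all tested genes were higher and 34.7% lower. Erythroid-like cells had 2 higher and 5 lower, where 40.3% and 35.5% were. Of these, the call for Casp8 in B-lymphoid-like cells (0.17) was lost without MxCre replicate 3 or Dnmt3a replicate 4 (0.08), and that for Birc2 in erythroid-like cells (0.14) with DESeq2, with a doubled marker threshold or without Tnfr1KO replicate 1.

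**Figure D1:**
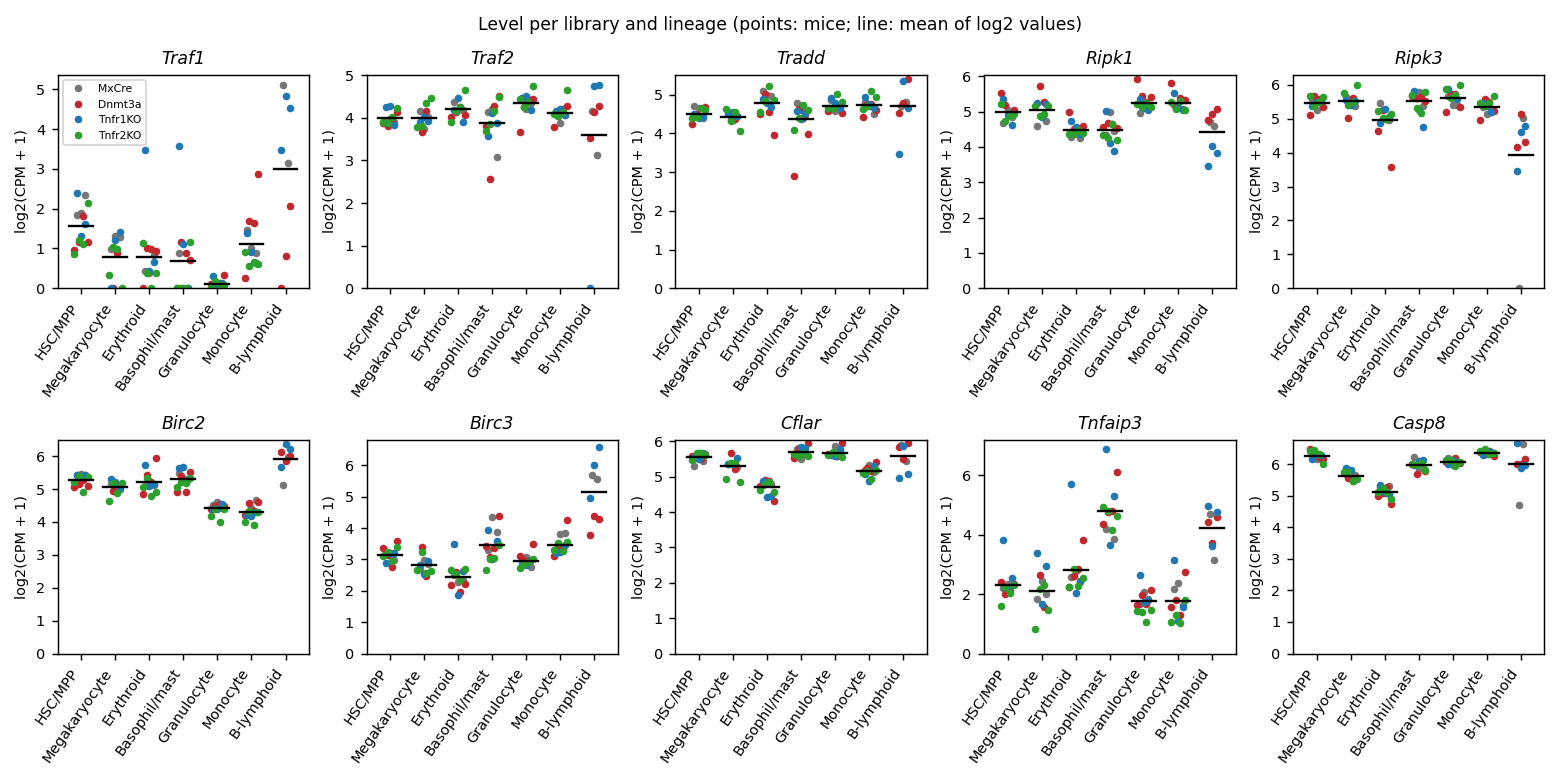
Level of each of the 10 genes as log2(CPM + 1) in 7 lineages; each point is 1 mouse coloured by group and the line is the mean of the log2 values. Traf1, Birc3 and Tnfaip3 span the widest range over lineages.

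Among the adaptors, Traf1 had a wide range over lineages and the other 2 a narrow one. Traf1, which binds Traf2 and the Birc ligases, stood at 13.1 ± 12.9 CPM (n = 8) in B-lymphoid-like cells, 2.13 ± 1.16 (n = 14) in HSC/MPP-like cells and 0.0839 ± 0.0781 (n = 14) in granulocyte-like cells. It was higher in B-lymphoid-like (log2 fold change 3.31 ± 0.52 SE, adjusted p = 4.50e-08) and HSC/MPP-like cells (1.26 ± 0.30 SE) and lower in granulocyte-like cells (-4.10 ± 0.40 SE). The B-lymphoid-like estimate was 2.10 without Tnfr1KO replicate 2 (adjusted p = 0.00285) and 4.05 without Dnmt3a replicate 4. This class mixes stages, as described below. Pooled over libraries, Traf1 stood at 1.87 unscaled CPM in its cells with a UMI of early B cell genes. It stood at 33.1 in those with UMIs of later B cell genes alone. In the MxCre and Tnfr1KO libraries 65.5 to 92.7% of the class had a UMI of the later genes. In the order of mean levels, B-lymphoid-like, HSC/MPP-like and monocyte-like cells each differed from the next. Erythroid-like, basophil/mast-like and megakaryocyte-like cells came after them and did not differ from their neighbours among these 3 beyond their spread, and granulocyte-like cells lay below. In the erythroid-like and basophil/mast-like cells of Tnfr1KO replicate 1 Traf1 read 10.2 and 10.8 CPM, against at most 1.18 and 1.248 in the other 13 libraries. Another 202 cells carried T/NK markers, too few per library to fit, and held 15.3% of the 1398 Traf1 UMIs while being 0.305% of the cells. The sort for Lin-Kit+ cells should have removed such cells. Their pooled level was 183 unscaled CPM of Traf1 (95% Poisson interval 159 to 209, counting error only). Traf2, the shared adaptor of both receptors, had only 1 neighbouring pair apart, granulocyte-like (19.5 ± 3.13 CPM, n = 14) above erythroid-like cells (17.5 ± 2.72, n = 14). Tradd, the death domain adaptor, ran from 20.4 ± 5.17 CPM (n = 14) in basophil/mast-like to 27.1 ± 9.96 (n = 8) in B-lymphoid-like cells, and the fitted log2 difference between these 2 lineages was 0.77 (B-lymphoid-like higher, adjusted p = 1.84e-08). Against the other lineages Tradd was 0.58 higher in B-lymphoid-like cells (adjusted p = 1.27e-07) and 0.35 higher without Dnmt3a replicate 4.

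Both kinases were higher in granulocyte-like cells. Ripk1, the death domain kinase and scaffold, was 0.45 higher on the log2 scale in granulocyte-like and in monocyte-like cells (37.7 ± 7.28 and 37.4 ± 6.44 CPM, n = 14 each), which did not differ from each other. It was lower in basophil/mast-like cells (-0.48) and erythroid-like cells (-0.46). Ripk3, the necroptosis kinase, was 0.38 higher in granulocyte-like cells (48.8 ± 7.47 CPM, n = 14) and lower in erythroid-like (31.3 ± 7.52, n = 14) and B-lymphoid-like cells (20.1 ± 11.3, n = 8; log2 fold change -0.78). In the order of mean levels, neighbours did not differ from granulocyte-like down to monocyte-like cells (40.2 CPM), which did differ from the erythroid-like cells after them.

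The survival genes divided by lineage. Birc2 and Birc3, ubiquitin ligases whose genes lie 10337 bp apart on chromosome 9, were both at their top in B-lymphoid-like cells: Birc2 at 61.3 ± 14.7 CPM (n = 8; log2 fold change 1.11) and Birc3 at 42.2 ± 27.8 (n = 8; 2.18). Pooled over libraries, Birc3 in that class stood at 17.3 unscaled CPM in cells with a UMI of early B cell genes. In those with UMIs of later genes alone it stood at 92.1, and Birc2 at 72.2 and 80.2. Birc2 was then lower in granulocyte-like (-0.81) and monocyte-like cells (-0.94), which did not differ from each other, whereas Birc3 was lower in erythroid-like (-1.19), megakaryocyte-like (-0.62) and granulocyte-like cells (-0.50). Tnfaip3 (A20), an inhibitor of NF-kB signalling, stood at 33.1 ± 28.1 CPM (n = 14) in basophil/mast-like cells (2.71 ± 0.13 SE), ahead of B-lymphoid-like cells at 19.6 ± 8.20 (n = 8; 1.68). Its lowest lineages were monocyte-like (2.75 ± 1.99, n = 14) and granulocyte-like cells (2.50 ± 1.01, n = 14), which did not differ from each other. Cflar (c-FLIP) was lower in erythroid-like (-0.83) and monocyte-like cells (-0.29) and higher in basophil/mast-like (0.36), B-lymphoid-like (0.35), granulocyte-like (0.33) and HSC/MPP-like cells (0.17). Casp8, whose gene lies 36349 bp from Cflar on chromosome 1, was also lowest in erythroid-like cells (-0.96; 33.9 ± 3.85 CPM, n = 14). In monocyte-like cells the pair parted: Casp8 was 0.51 higher (81.1 ± 3.48 CPM, n = 14) and Cflar lower. The receptors themselves were read at 66.2 CPM (Tnfrsf1a) and 16.99 CPM (Tnfrsf1b) in granulocyte-like cells and at 4.57 CPM (Tnfrsf1a) in B-lymphoid-like cells. These means include receptor knockout libraries. Tnfrsf1b in granulocyte-like cells ran from 4.41 to 26.8 CPM over all 14 libraries, with a median of 19.7.

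For the 3 genes of widest range, the genes whose mean log2 levels over the 7 lineages followed them most closely among 9348 others were named as a description. For Traf1 they were Bach2 (Pearson r = 0.988), Traf5 (0.982) and Zup1 (0.980), for Tnfaip3 Hist1h1c (0.968), Junb (0.963) and Gpr174 (0.953), and for Birc3 Trim5 (0.982), Plekhm1 (0.980) and Filip1l (0.980). The 7 points share their libraries, and no p-value is attached.

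In B-lymphoid-like cells, 3 of the 10 genes passed the test between the Tnfr1KO and Dnmt3a libraries, where 15.9% of all 8212 tested genes passed. From here on CPM are scaled within the lineage. Birc3 read 13.6, 20.8 and 18.9 CPM in Dnmt3a replicates 1, 3 and 4 and 36.1, 65.8 and 102 in Tnfr1KO replicates 1 to 3 (log2 fold change 2.05 ± 0.32 SE, edgeR adjusted p = 7.18e-04). Traf1 read 0, 0.802 and 3.26 CPM against 12.03, 28.0 and 23.6 (3.45 ± 0.69 SE, adjusted p = 0.00383). Ripk1 went the other way, at 27.9, 31.3 and 33.0 CPM against 12.03, 15.6 and 14.2 (-1.06 ± 0.33 SE, adjusted p = 0.0412). The groups did not overlap for any of the 3, as for 33.8% of all tested genes. Counts behind these values were small: Tnfr1KO replicate 1 had 29 such cells with 1 Traf1, 3 Birc3 and 1 Ripk1 UMIs. The Ripk1 call was lost under every one of 12 alternatives (adjusted p 0.0506 to 0.461), the Traf1 call without Tnfr1KO replicate 2 (adjusted p = 0.107; its estimate was 5.47 without Dnmt3a replicate 4), and the Birc3 call under none. No Tnfr2KO library had enough such cells. MxCre replicates 1 and 3 read 55.1 and 51.1 CPM for Birc3, and Dnmt3a against MxCre gave -1.55 (adjusted p = 0.0791, 3.65% of genes called).

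The share of B-lymphoid-like cells with UMIs of early B cell genes was higher in each of these 3 Dnmt3a libraries than in any Tnfr1KO library. After the values above were seen, the cells were divided by UMIs of Vpreb1, Igll1 or Dntt, genes of early B cell precursors, and of Ms4a1, Ighd, Fcer2a or Cr2, genes of later B cells. Cells with an early-marker UMI made up 82.7%, 46.1% and 94.1% of the class in Dnmt3a replicates 1, 3 and 4, and 10.3%, 6.05% and 6.52% in the Tnfr1KO libraries. Vpreb1 and Igll1 are also among the 8 marker genes that define the B-lymphoid-like class, whereas Dntt and the later genes are not. Cells with a Dntt UMI made up 72.0%, 39.3% and 85.2% of the class in the Dnmt3a libraries and 6.90%, 3.63% and 5.80% in Tnfr1KO, and cells with a late-marker UMI 38.7%, 39.9% and 16.6% against 65.5%, 92.7% and 88.4%. In granulocyte-like cells of these 6 libraries, which should lack these genes, 0.161 to 2.93% had a Dntt UMI and 0.296 to 5.13% a late-marker UMI. An early-marker UMI of any kind was seen in 8.23 to 22.4% of them, a range that the Tnfr1KO shares do not exceed. The amount per cell did differ: early-marker B-lymphoid-like cells of Tnfr1KO replicates 1 to 3 had a median of 35, 43 and 31 such UMIs. Granulocyte-like cells with an early-marker UMI had a median of 1 such UMI, against 31 to 64.5 in B-lymphoid-like cells with one. The granulocyte-like cells were deeper, with a median of 23781 to 50781 UMIs against 2248 to 14965 in the B-lymphoid-like cells. Dnmt3a replicate 4 supplied 1938 of all 2147 early-marker cells and Tnfr1KO replicate 2 375 of the 784 with late markers alone, so pooled values for these classes largely follow those libraries. Over all libraries, Traf1 stood at 1.87 unscaled CPM (95% Poisson interval 1.31 to 2.59) in early-marker cells and at 33.1 (26.3 to 41.2) in late-marker cells. Birc3 stood at 17.3 (15.5 to 19.3) and 92.1 (80.4 to 105), and Ripk1 at 37.6 (34.9 to 40.4) and 14.7 (10.3 to 20.4). Within Dnmt3a replicate 4 alone, the early-marker cells gave 2.12 unscaled CPM of Traf1 (1.48 to 2.95), 18.2 of Birc3 (16.2 to 20.3) and 38.8 of Ripk1 (35.9 to 41.9), and the 106 late-marker cells gave 52.5 (34.6 to 76.4), 125 (95.9 to 159) and 11.7 (4.28 to 25.4). Late-marker cells of Dnmt3a replicate 3 (59 cells) had no Traf1 UMI (95% upper limit 21.2 unscaled CPM), 40.2 unscaled CPM of Birc3 (16.1 to 82.8) and 34.4 of Ripk1 (12.6 to 74.9). Tnfr1KO replicate 2 gave 32.5 of Traf1 (22.5 to 45.4), 72.7 of Birc3 (57.3 to 91.0) and 11.5 of Ripk1 (5.93 to 20.0) in its late-marker cells, and replicate 3 (119 cells) 27.4 (12.5 to 52.0), 119 (84.4 to 162) and 15.2 (4.94 to 35.5). Intervals cover counting error only, cells with fewer UMIs are less likely to show an early-marker UMI, and no test across mice was made of this split. Kit ranged from 4.31 to 101 unscaled CPM in B-lymphoid-like cells, over the libraries with at least 20 of them. It read 69.7, 40.3 and 101 in Dnmt3a replicates 1, 3 and 4, and 11.5, 4.31 and 13.4 in Tnfr1KO replicates 1 to 3. MxCre replicates 1 and 3 read 31.9 and 7.97. Over all kept cells no library read below 69.0. The sort was for Kit protein, which these counts do not measure.

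**Figure D2:**
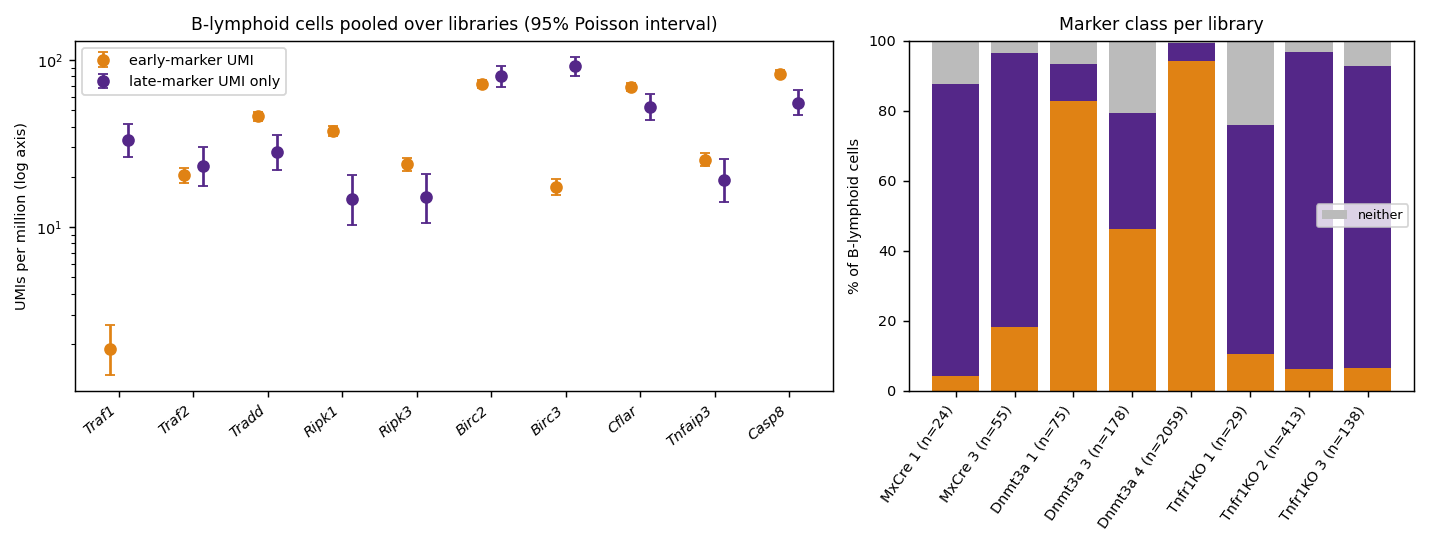
Left, unscaled CPM (log axis) of the 10 genes in B-lymphoid-like cells with an early-marker UMI and with late-marker UMIs only, pooled over libraries with 95% Poisson intervals; right, percent of each library's B-lymphoid-like cells in each class for libraries with at least 20 of them. Traf1 and Birc3 are higher and Ripk1 lower in late-marker cells, and the Dnmt3a libraries hold the most early-marker cells.

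The 4 group comparisons over all kept cells came next. None of the 10 genes passed in any of them (edgeR, adjusted p below 0.05), where 2.47% of 15648 genes passed for Dnmt3a against MxCre, 0.582% for Tnfr1KO against Dnmt3a, 0.991% for Tnfr2KO against Dnmt3a and 0.198% for Tnfr2KO against Tnfr1KO. At an unadjusted p below 0.05 they numbered 1, 0, 1 and 1, where 23.5%, 19.7%, 23.1% and 3.94% of all tested genes did so. DESeq2 called 1, 0, 0 and 0 of the 10, but it also changed the count of all genes called in each comparison. Over the alternatives that kept every library, that count reached 1498, 920, 1097 and 106, against 387, 91, 155 and 31 in the main fit. Their median log2 differences were 0.12, -0.01, -0.16 and -0.02, against medians over all tested genes of 0.03, -0.05, -0.03 and 0.02. In values summed over all cells, fewer cells of a type and less RNA per cell cannot be told apart. The comparisons share groups, so a library that is high in one of them moves several.

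**Figure D3:**
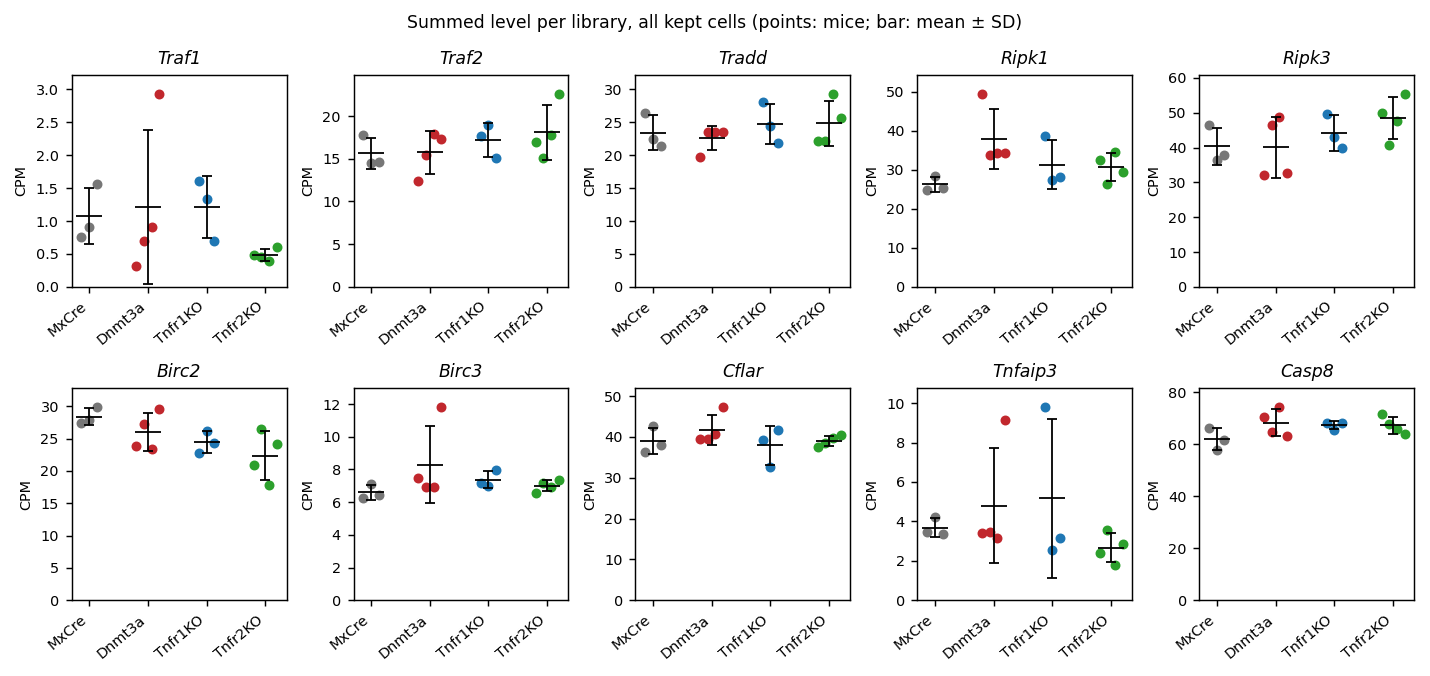
CPM of the 10 genes summed over all kept cells; each point is 1 mouse, the bar and whiskers are the group mean ± SD, and each axis starts at 0. Ripk1 is the only one of the 10 whose Dnmt3a and MxCre points do not overlap, as for 19.1% of all tested genes.

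Ripk1 had the smallest p-value of the 10 in Dnmt3a against MxCre. It read 24.97, 28.4 and 25.5 CPM in MxCre and 49.5, 33.9, 34.3 and 34.4 in Dnmt3a, so every Dnmt3a library lay above every MxCre library and replicate 1 far above the rest. Such a separation in either direction held for 19.1% of all tested genes. The log2 fold change was 0.53 ± 0.16 SE, with an edgeR adjusted p of 0.0786 that misses the threshold. DESeq2 gave an adjusted p of 0.0217. Leaving out Dnmt3a replicate 1 gave 0.37 with an edgeR adjusted p of 0.133. The highest edgeR adjusted p was 0.233, without MxCre replicate 3 (log2 fold change 0.51). The means of the receptor knockout groups lay between, with 38.6, 27.5 and 28.1 CPM in Tnfr1KO (-0.28 against Dnmt3a, adjusted p = 0.349) and 32.5, 26.5, 34.5 and 29.6 in Tnfr2KO (-0.30, adjusted p = 0.226). Without Dnmt3a replicate 1 these were -0.13 and -0.17, and the first was -0.45 without Tnfr1KO replicate 1. All 3 differences share the Dnmt3a libraries.

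Within lineages the Dnmt3a against MxCre estimate for Ripk1 was positive in 7 of 7, from 0.10 in basophil/mast-like to 0.78 in megakaryocyte-like cells, and the groups did not overlap in 5. The lineages are parts of the same libraries, so their signs here and below are not independent. Dnmt3a replicate 1 was the highest library for Ripk1 in 5 of the 7. Over all tested genes the groups did not overlap for 10.9% (basophil/mast-like) to 41.4% (megakaryocyte-like). Genes called in this comparison made up 7.15% in HSC/MPP-like, 2.72% in megakaryocyte-like, 0% in erythroid-like, 0.487% in basophil/mast-like, 3.18% in granulocyte-like, 0.0167% in monocyte-like and 3.65% in B-lymphoid-like cells. Ripk1 rose in megakaryocyte-like cells alone by the test, from 24.96, 31.1 and 27.6 CPM in MxCre to 55.5 and 40.9 in the 2 Dnmt3a libraries with enough such cells (log2 fold change 0.78 ± 0.17 SE, edgeR adjusted p = 0.0236). That call was lost without MxCre replicate 1, MxCre replicate 3 or Dnmt3a replicate 1 (adjusted p up to 0.444). In granulocyte-like cells Ripk1 read 25.5, 29.3 and 29.4 CPM in MxCre and 51.7, 36.1, 33.0 and 36.8 in Dnmt3a (0.49 ± 0.14 SE, adjusted p = 0.0636). It passed there with DESeq2 (adjusted p = 0.0254) and without Dnmt3a replicate 4 (edgeR adjusted p = 0.0491), and the estimate was 0.32 without Dnmt3a replicate 1. In the 21066 cells without a lineage the estimate was 0.54 (adjusted p = 0.0533, 5.98% of genes called). Against Dnmt3a, the Ripk1 estimate was negative in 7 of 7 lineages in Tnfr1KO and in 6 of 6 in Tnfr2KO, and passed only in the B-lymphoid-like cells described above. For Tnfr1KO against Dnmt3a the genes called made up 0.688% in HSC/MPP-like, 0.453% in megakaryocyte-like, 0.0456% in erythroid-like, 0.412% in basophil/mast-like, 2.44% in granulocyte-like and 1.03% in monocyte-like cells. Whether lineages differ in this was not tested.

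**Figure D4:**
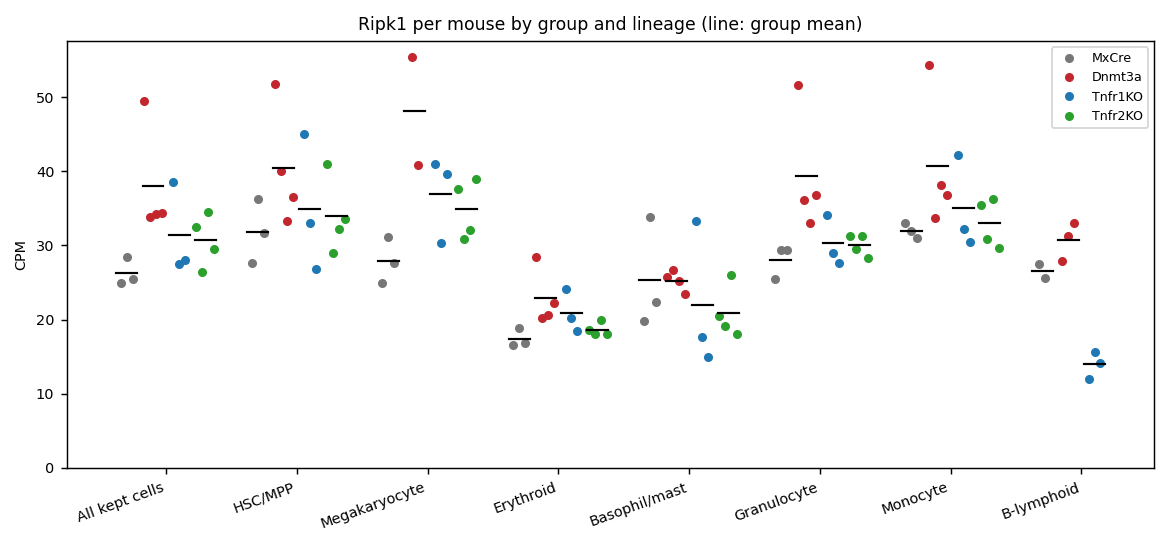
Ripk1 CPM per mouse over all kept cells and within 7 lineages, by group; lines are group means and the axis starts at 0. Dnmt3a replicate 1, at 49.5 CPM over all cells, is the highest point in 5 of the 7 lineages.

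Of the adaptors, Traf1 alone had an unadjusted p below 0.05 over all cells, in both comparisons that involve Tnfr2KO. It read 0.488, 0.454, 0.392 and 0.598 CPM in Tnfr2KO, 1.61, 1.34 and 0.699 in Tnfr1KO and 0.319, 0.693, 0.907 and 2.93 in Dnmt3a. Tnfr2KO lay below every Tnfr1KO library, with no overlap for 5.78% of all tested genes (log2 fold change -1.33 ± 0.57 SE, adjusted p = 1) and overlapped with Dnmt3a (-1.33 ± 0.54 SE, adjusted p = 0.168; -0.41 without Dnmt3a replicate 4). In that Dnmt3a library 30.3% of Traf1 UMIs came from T/NK-like and 19.2% from B-lymphoid-like cells, although the sort should leave out mature T and B cells. Kit read 37.5 unscaled CPM in the T/NK-like cells of that library. Its B-lymphoid marker genes summed to 2534 unscaled CPM against 33.1 to 201 in the other 13, with all 8 markers detected in every library. Without all B-lymphoid-like and T/NK-like cells, an alternative chosen after seeing the data, the Traf1 estimate was -1.01 against Dnmt3a (adjusted p = 0.315) and -0.86 against Tnfr1KO. Among monocyte-like cells alone the Traf1 estimate for Tnfr2KO against Dnmt3a was -2.10 ± 0.67 SE (adjusted p = 0.109), from 0.197, 2.11, 1.99 and 6.04 CPM in Dnmt3a to 0.847, 0.437, 0.551 and 0.481. That estimate was -1.22 without Dnmt3a replicate 4, and it passed with DESeq2 (adjusted p = 0.0360) and without Dnmt3a replicate 1 (edgeR adjusted p = 0.0282). HSC/MPP-like cells had 2.90, 3.05 and 4.65 CPM of Traf1 in MxCre and 1.08, 1.43, 2.91 and 1.41 in Dnmt3a (-1.06 ± 0.44 SE, adjusted p = 0.152). Traf1 passed the low-count filter in 3 of 7 lineages only, so no group comparison was made for it in the others. Traf2 ranged from 12.3 to 22.6 CPM and Tradd from 19.8 to 29.3 over the 14 libraries, with no unadjusted p below 0.05 in any comparison.

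Ripk3 had 36.5 to 46.6 CPM in MxCre, 32.2 to 48.7 in Dnmt3a, 39.9 to 49.7 in Tnfr1KO and 40.7 to 55.4 in Tnfr2KO, and its largest estimate was 0.27 ± 0.15 SE for Tnfr2KO against Dnmt3a (adjusted p = 0.282; 0.17 without Dnmt3a replicate 1). Casp8 ranged from 57.8 to 74.3 CPM over the 14 libraries, with estimates between -0.02 and 0.14. Cflar ranged from 32.7 to 47.3 CPM, with estimates between -0.14 and 0.10.

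Birc2 read 27.4, 27.9 and 29.9 CPM in MxCre and 20.9, 26.5, 17.8 and 24.1 in Tnfr2KO, with Dnmt3a between 23.4 and 29.6 (Tnfr2KO against Dnmt3a -0.22 ± 0.12 SE, adjusted p = 0.278; -0.13 without Tnfr2KO replicate 3). In HSC/MPP-like cells the MxCre libraries held 47.8, 49.1 and 47.6 CPM of Birc2, the Dnmt3a libraries 37.3, 39.3, 42.9 and 38.5, and the Tnfr1KO libraries 47.4, 46.8 and 47.8. Dnmt3a overlapped with neither, as for 19.6% of all tested genes against MxCre and 11.8% against Tnfr1KO (-0.28 ± 0.11 SE against MxCre, adjusted p = 0.122; Tnfr1KO 0.26 ± 0.12 SE against Dnmt3a, adjusted p = 0.328). Both differences share the Dnmt3a libraries, and Tnfr2KO against Dnmt3a gave 0.10 for Birc2 in these cells. Over the 7 lineages, Birc2 in Dnmt3a against MxCre was lower in 5 and higher in 2, with 0.30 in erythroid-like cells. Birc3 lay between 6.27 and 7.96 CPM in 13 libraries and at 11.8 in Dnmt3a replicate 4, where 27.6% of its UMIs came from B-lymphoid-like cells. The Birc3 estimate for Dnmt3a against MxCre was 0.33 (adjusted p = 0.262), 0.11 without that library and 0.29 without B-lymphoid-like and T/NK-like cells.

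Tnfaip3 followed single libraries more than groups. Over all cells it lay between 1.81 and 4.22 CPM in 12 libraries, at 9.16 in Dnmt3a replicate 4, where 44.5% of its UMIs came from B-lymphoid-like cells, and at 9.80 in Tnfr1KO replicate 1. The latter was the highest of the libraries with at least 20 cells in 7 of 7 lineages (14 libraries in 5 of them, 12 in megakaryocyte-like and 8 in B-lymphoid-like cells, where its value rests on 3 UMIs). On the scale used for levels by lineage, its erythroid-like cells read 51.5 CPM against 3.09 to 13.1 in the other 13 libraries, its basophil/mast-like cells 118 against 11.7 to 68.0, and its HSC/MPP-like cells 13.3 against 2.03 to 4.85. Of 8 other fast-responding transcripts (Atf3, Dusp1, Egr1, Fos, Fosb, Ier2, Jun and Junb), chosen after this was seen, 7 were also highest there over all cells, Fosb being the exception at 37.1 unscaled CPM against 16.6 to 57.6. Atf3 stood at 6.96 unscaled CPM against 0.147 to 3.76 and Egr1 at 36.0 against 6.86 to 24.7, whereas Dusp1 was close to the next library, at 40.3 against 13.4 to 39.1. Nfkbia, the NF-kB inhibitor gene induced by NF-kB, was at 222 CPM against 35.9 to 70.4, and Tnf at 6.50 against 1.42 to 3.48. Their part in the Tnfaip3 values was not tested.

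The Tnfaip3 estimate for Tnfr2KO against Tnfr1KO was negative in 6 of 6 lineages, from -0.95 in HSC/MPP-like to -1.95 in erythroid-like cells, with an unadjusted p below 0.05 in 5 (1.42 to 4.83% of all tested genes by lineage) and a call in none. Genes called in this comparison made up 0.12% in HSC/MPP-like, 0.0772% in megakaryocyte-like, 0.0365% in erythroid-like, 0.0374% in basophil/mast-like, 0.225% in granulocyte-like and 0.167% in monocyte-like cells. Without Tnfr1KO replicate 1 the erythroid-like estimate turned to 0.35, the basophil/mast-like estimate was -0.01, the monocyte-like -0.10, the HSC/MPP-like -0.32, the megakaryocyte-like -0.58, the granulocyte-like -0.64, and the estimate over all cells went from -0.96 to -0.10. Granulocyte-like cells held the smallest p: Tnfaip3 read 1.47, 1.42, 0.944 and 1.49 CPM in Tnfr2KO, below all 10 other libraries, which ran from 1.81 to 4.48. Groups did not overlap for 4.94% of all tested genes against Tnfr1KO and 12.2% against Dnmt3a in these cells. There the estimates were -1.13 ± 0.29 SE against Tnfr1KO (adjusted p = 0.307) and -0.81 ± 0.28 SE against Dnmt3a (adjusted p = 0.101, 3.69% of genes called).

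**Figure D5:**
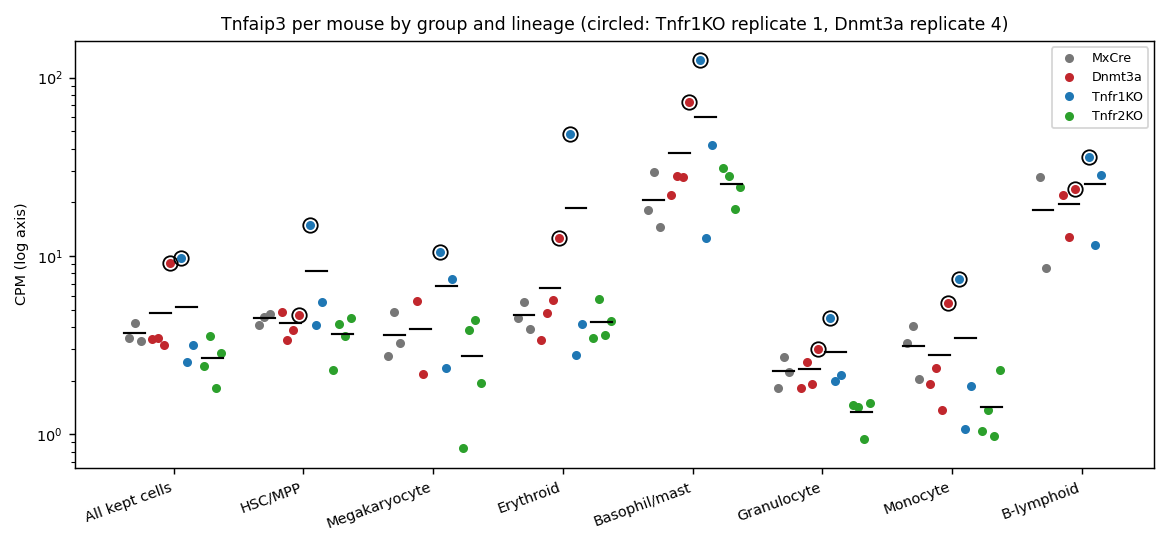
Tnfaip3 CPM (log axis) per mouse over all kept cells and within 7 lineages; circles mark Tnfr1KO replicate 1 and Dnmt3a replicate 4 and lines are group means. Tnfr1KO replicate 1 is the highest plotted point in each lineage, and the 4 Tnfr2KO points are the lowest in granulocyte-like cells, where groups did not overlap for 4.94% of all tested genes against Tnfr1KO and 12.2% against Dnmt3a.

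Across lineages, no gene of the 10 was called in Tnfr2KO against Dnmt3a or against Tnfr1KO by edgeR. The unadjusted p was below 0.05 for 7 and 5 gene and lineage pairs, with 9 or 10 genes tested in each of 6 lineages, and DESeq2 called 1 and 0. Of all tested genes, 9.44 to 25% by lineage passed that p against Dnmt3a and 1.42 to 4.83% against Tnfr1KO. The share of all genes that DESeq2 called within lineages is not given, so its calls there stand without a background. For Tnfr2KO against Dnmt3a the 7 pairs were all lower: Ripk1 in granulocyte-like (-0.38) and megakaryocyte-like cells (-0.48), Birc2 in granulocyte-like (-0.27) and monocyte-like cells (-0.33), Tnfaip3 (-0.81) and Birc3 (-0.33) in granulocyte-like cells, and Traf1 in monocyte-like cells (-2.10). Of all tested genes, 14.6% in granulocyte-like, 12.4% in monocyte-like and 8.55% in megakaryocyte-like cells were lower at that p. In the lineages where none of the 10 was, the shares were 7.72% (HSC/MPP-like), 11.6% (erythroid-like) and 4.89% (basophil/mast-like). Genes called in this comparison made up 0.533% in HSC/MPP-like, 0.608% in megakaryocyte-like, 0.0821% in erythroid-like, 0.499% in basophil/mast-like, 3.69% in granulocyte-like and 1.26% in monocyte-like cells.

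Of 42 other genes of the pathway (TNF itself, further Traf proteins, the linear ubiquitin complex, IkB kinases, NF-kB subunits, stress kinases and caspases), only Otulin was called over all cells. Otulin removes linear ubiquitin chains from the receptor complex. It read 48.7, 49.2, 54.5 and 45.6 CPM in Dnmt3a, and rose to 67.8, 71.9 and 69.0 in Tnfr1KO (log2 fold change 0.49 ± 0.10 SE, adjusted p = 0.0448) and to 72.3, 65.1, 67.3 and 59.2 in Tnfr2KO (0.41, adjusted p = 0.0488). MxCre stood at 67.1, 54.9 and 57.1 CPM, above all Dnmt3a libraries (Dnmt3a against MxCre -0.27, adjusted p = 0.117; 9.26% of all tested genes were lower without overlap). Both calls share the Dnmt3a libraries. Of all tested genes 0.582% were called in Tnfr1KO against Dnmt3a and 0.991% in Tnfr2KO against Dnmt3a. The Otulin calls lie close to the threshold and were not followed under the alternatives run for the 10 genes. At an unadjusted p below 0.05, the list had 8 genes higher and 2 lower in Dnmt3a against MxCre, 2 and 7 in Tnfr1KO against Dnmt3a, 1 and 6 in Tnfr2KO against Dnmt3a, and 0 and 2 in Tnfr2KO against Tnfr1KO. Of all tested genes 13.2% were higher and 10.2% lower at that p in Dnmt3a against MxCre, 7.43% and 12.2% in Tnfr1KO against Dnmt3a, 9.32% and 13.8% in Tnfr2KO against Dnmt3a, and 1.81% and 2.13% in Tnfr2KO against Tnfr1KO.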

How the data were processed

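The authors deposited whole-number UMI counts per gene and cell barcode (10x matrices) for 14 libraries, without normalization, made with bcl2fastq 2.20.0.422 and Cell Ranger 6.0.0 on mm10/GRCm38, per the submitters' processing notes. Barcodes with at least 1000 UMIs, 500 genes and at most 10% mitochondrial UMIs were kept, and simulated-doublet scoring removed 67 to 524 barcodes per library. A cell took a lineage when its marker UMIs per 10000 passed that lineage's threshold and at least 2 markers were seen. Where another lineage also passed, the score relative to the threshold had to be at least 2 times that of the other. Counts were summed per library and lineage (at least 20 cells, 2 libraries per group) and tested with edgeR 4.0.16 (TMM, filterByExpr, quasi-likelihood, all 4 groups in 1 model, Benjamini-Hochberg over all tested genes, R 4.3.3). Alternatives were DESeq2 1.42.0, no low-count filter, a fit of only the 2 groups compared, a replicate block and leaving out each library. Cells were also varied, by keeping doublets, by a higher UMI minimum, by a doubled marker threshold and by leaving out some lineages. On simulated data for Dnmt3a against MxCre over all cells, 67.2% of genes changed 2-fold and 9.09% of those changed 1.5-fold were recovered (15613 genes). Every simulated gene had the same spread between libraries beyond counting error, and libraries did not differ in cell make-up. The shares therefore do not apply to genes that vary more.

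The genes, lists and tests were chosen with earlier results of these data known. Lineage thresholds, the removal of Nkg7 from the T/NK markers, the division of B-lymphoid-like cells and the early-response genes were chosen after seeing the data. Named are all 10 genes, the targeted genes, pathway genes called over all cells, and the 3 genes closest in pattern to each of the 3 with the widest range.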

Additional observations from a re-analysis of the deposited data

Results flagged for a closer look

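In groups of 4 libraries, 1 library lay far from the other 3 for 11 of 123 gene, group and cell combinations, measured by its gap to the nearest relative to the group's range; chance gives about 1 in 20. Of these, 6 were in Dnmt3a replicate 4: over all cells Birc3 at 11.8 CPM (others 6.93 to 7.47), Cflar at 47.3 (39.5 to 40.7) and Tnfaip3 at 9.16 (3.15 to 3.48), and within lineages Birc3 at 17.1 in monocyte-like cells (7.54 to 9.18), Cflar at 53.8 in granulocyte-like cells (41.3 to 41.8) and Tnfaip3 at 72.6 in basophil/mast-like cells (22.0 to 28.0). Dnmt3a replicate 1 was the high one for Ripk1 at 49.5 CPM (33.9 to 34.4) and the low one for Tradd at 19.8 (23.5 to 23.6), both over all cells. Casp8 stood at 62.7 in granulocyte-like cells of Dnmt3a replicate 3 (56.3 to 57.3). In Tnfr2KO, Birc3 stood at 9.25 in megakaryocyte-like cells of replicate 2 (5.45 to 5.85) and Tnfaip3 at 0.944 in granulocyte-like cells of replicate 3 (1.42 to 1.49).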

How the results depend on the processing

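The count of the 10 genes called over all cells was 0 in each comparison under every alternative run, except 1 (Ripk1) with DESeq2 for Dnmt3a against MxCre. Within lineages, the share of all genes called under each alternative is not given, so counts there stand without a background. The counts of gene and lineage pairs called moved more. For Dnmt3a against MxCre (1 pair) they were 3 with DESeq2, 4 with no filter on low counts, and 0 to 3 when a library was left out (0 without MxCre replicate 1, MxCre replicate 3 or Dnmt3a replicate 1, and 3 without Dnmt3a replicate 4). For Tnfr1KO against Dnmt3a (3 pairs) leaving out a library gave 1 to 3 (1 without Tnfr1KO replicate 2). For Tnfr2KO against Dnmt3a (0 pairs) DESeq2 and a doubled marker threshold gave 1 each, and leaving out a library 0 to 1. For Tnfr2KO against Tnfr1KO (0 pairs) no filter on low counts gave 1 (Tnfaip3 in basophil/mast-like cells). Reversed were Birc2 over all cells in Tnfr2KO against Dnmt3a, at 0.030 in the cells of no lineage alone (an alternative chosen after seeing the data), and Tnfaip3 in erythroid-like cells in Tnfr2KO against Tnfr1KO, at 0.35 without Tnfr1KO replicate 1, with a range of -2.54 to 0.35 over the left-out libraries; the cause was not tested. Of the 50 calls between lineages, 45 were kept in every alternative run; lost under at least 1 were Traf2 in HSC/MPP-like, Birc2 in erythroid-like, Ripk3 in basophil/mast-like and Casp8 in granulocyte-like and B-lymphoid-like cells. With the replicate block the pairs called were 1, 2, 0 and 0 in the 4 comparisons and no gene of the 10 was called over all cells; same-numbered libraries did not deviate together in every pair, so the numbers are not taken to pair mice. The count of all genes called over all cells, which sets the background, ran from 0 (without MxCre replicate 2) to 1498 for Dnmt3a against MxCre, 8 to 920 for Tnfr1KO against Dnmt3a, 19 to 1097 for Tnfr2KO against Dnmt3a and 18 to 106 for Tnfr2KO against Tnfr1KO. Low UMI counts limit Traf1 and, in B-lymphoid-like cells, all 10 genes.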
